A study of Mus musculus with 8 samples.

Results

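The mitochondrial Slc25 carriers were examined in the liver of aged obese mice with and without dietary docosahexaenoic acid (DHA), an n-3 fatty acid of fish oil. Members were the genes of the count tables whose GENCODE symbol is protein-coding and made of Slc25a followed by a number, and 45 genes are described of 56884. Both groups were C57BL/6J females that ate a high-fat diet, in which lipids gave 45% of the energy, for 4 months from the age of 2 months and were then divided. The DIO group (diet-induced obese, 3 mice) stayed on that diet until 18 months. The DIO + DHA group (5 mice) ate it until the same age with 15% of the dietary lipids, by weight, replaced by a fish-oil concentrate that held 683.4 mg of DHA per g, so the groups differed in the lipids removed as well as in the DHA added. Poly(A) RNA was sequenced with 1 library per mouse, and no batch label separated the groups. Mice shared cages, and the labels do not give the cage of each mouse, so the part of the cage was not tested. No mice without obesity were in the comparison.

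Slc25 proteins are carriers of the inner mitochondrial membrane, built from repeats of a pair of membrane helices with a conserved signature sequence. They exchange metabolites between the cytosol and the matrix, such as ADP for ATP, phosphate, acylcarnitines, citrate, malate, aspartate, glutamate and the cofactors that matrix enzymes need. In the liver they link the oxidation of fatty acids, the making of glucose and fat, and the urea cycle across that membrane, and several of them exist as forms that different tissues prefer.

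The libraries held 1723800 to 5690347 counts, and DIO replicate 1 was the shallowest. Levels are in CPM, which are counts scaled to the same TMM-corrected total in every library. Reads came mostly from the 3′ ends of transcripts, and CPM were not divided by gene length. Transcript ends differ in how far reads can be aligned uniquely, so CPM of different carriers should not be read as a ranking of their abundance. The summed CPM of 10 hepatocyte markers was 122374 to 128468 in DIO livers and 130595 to 142592 in DIO + DHA livers. Of these 10, 4 were called higher and 3 lower, among them Apoa1 and Fgb, and Alb, Ttr and Cps1 were not called. Over all tested genes, 7.89% were called higher and 7.28% lower. Markers of other cell types also differed between the groups. The summed CPM was 51.5 to 61.3 in the DIO group and 1685 to 1818 in the DIO + DHA group for 30 skeletal muscle markers, and 45.4 to 51.8 and 106 to 118 for 14 markers of stratified squamous epithelium. For 10 macrophage markers it was 576 to 652 and 335 to 365, with 8 of them called lower and 1 higher. Several muscle and epithelial markers had 0 counts in the DIO libraries and could be tested only because they were present in the other group, so no count of calls is given for those lists. In bulk tissue, fewer cells of a type and less RNA per cell cannot be told apart. The part of RNA from these other cell types in the change of any carrier or other gene given below was not tested.

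Some carriers were higher and others lower in the DIO + DHA livers, and most showed no detectable difference. Of the 45 carriers, 36 had enough counts to be tested, and 9 of these were called, that is, had an adjusted p under 0.05 in the quasi-likelihood test of edgeR with the Benjamini-Hochberg method applied to all 12412 genes tested, of which 15.2% passed. The muscle form of the ADP/ATP translocase, Slc25a4, had the largest change and was 7.88-fold higher. The glutamate carrier Slc25a22, the CoA carrier Slc25a42, the liver-enriched carrier Slc25a47, the phosphate carrier Slc25a3 and the oxoglutarate/malate carrier Slc25a11 were also higher. Carriers of NAD (Slc25a51) and folate (Slc25a32), and the ATP-Mg/phosphate carrier Slc25a23, were lower. The 6 higher and 3 lower members stand beside 7.89% and 7.28% of all tested genes that were higher and lower. The median log2 fold change of the 36 members was 0.07 and their median absolute change 0.22, and over all tested genes these medians were 0.00 and 0.22.

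Slc25a4, the form of heart and skeletal muscle, was set aside for its tissue, and the other members were kept apart by their level in the DIO libraries. Another 7 carriers were near 0, with a DIO mean under 1 CPM, and none of them could be tested. Slc25a35 (0.307 CPM) and Slc25a43 (0.237 CPM) were the nearest below that limit, and Slc25a24 (1.16 CPM) and Slc25a40 (1.23 CPM) the nearest above it. The remaining 37 are termed liver carriers here, and the term also covers Slc25a12, the form that muscle and brain prefer. Of the 37, 35 were tested and 8 called (5 higher and 3 lower), beside 15.2% of all tested genes. The other pair, Slc25a24 and Slc25a40, had too few counts for the test. Of the 27 tested liver carriers with at least 10 CPM in the DIO group, 8 were called, and of the 8 below that level 0 were, by edgeR, by DESeq2 and by limma-voom alike, with 0 at an unadjusted p under 0.05. The second set had standard errors of 0.23 to 0.54 on the log2 scale, so that only large differences were detectable in it at this depth. The 15.2% is over genes of every level, and no share was computed for all genes of at least 10 CPM.

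Slc25a2, Slc25a18, Slc25a31, Slc25a41 and Slc25a54 had 0 counts in all 8 libraries. A count of 0 allows up to 0.232 CPM over the 3 DIO libraries together and 0.151 CPM over the 5 DIO + DHA libraries, counted as 3 reads of the group's total. Slc25a31 encodes the ADP/ATP translocase of testis, Slc25a18 a second glutamate carrier and Slc25a2 a basic amino acid carrier. Slc25a35 had 3 counts over the DIO libraries and 10 over the others, and Slc25a43 had 4 and 5. An antisense gene, Rangrf, covered 31.3% of the exon bases of Slc25a35. Counting ignored strand, so reads that overlapped both genes were counted for neither.

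**Figure D1:**
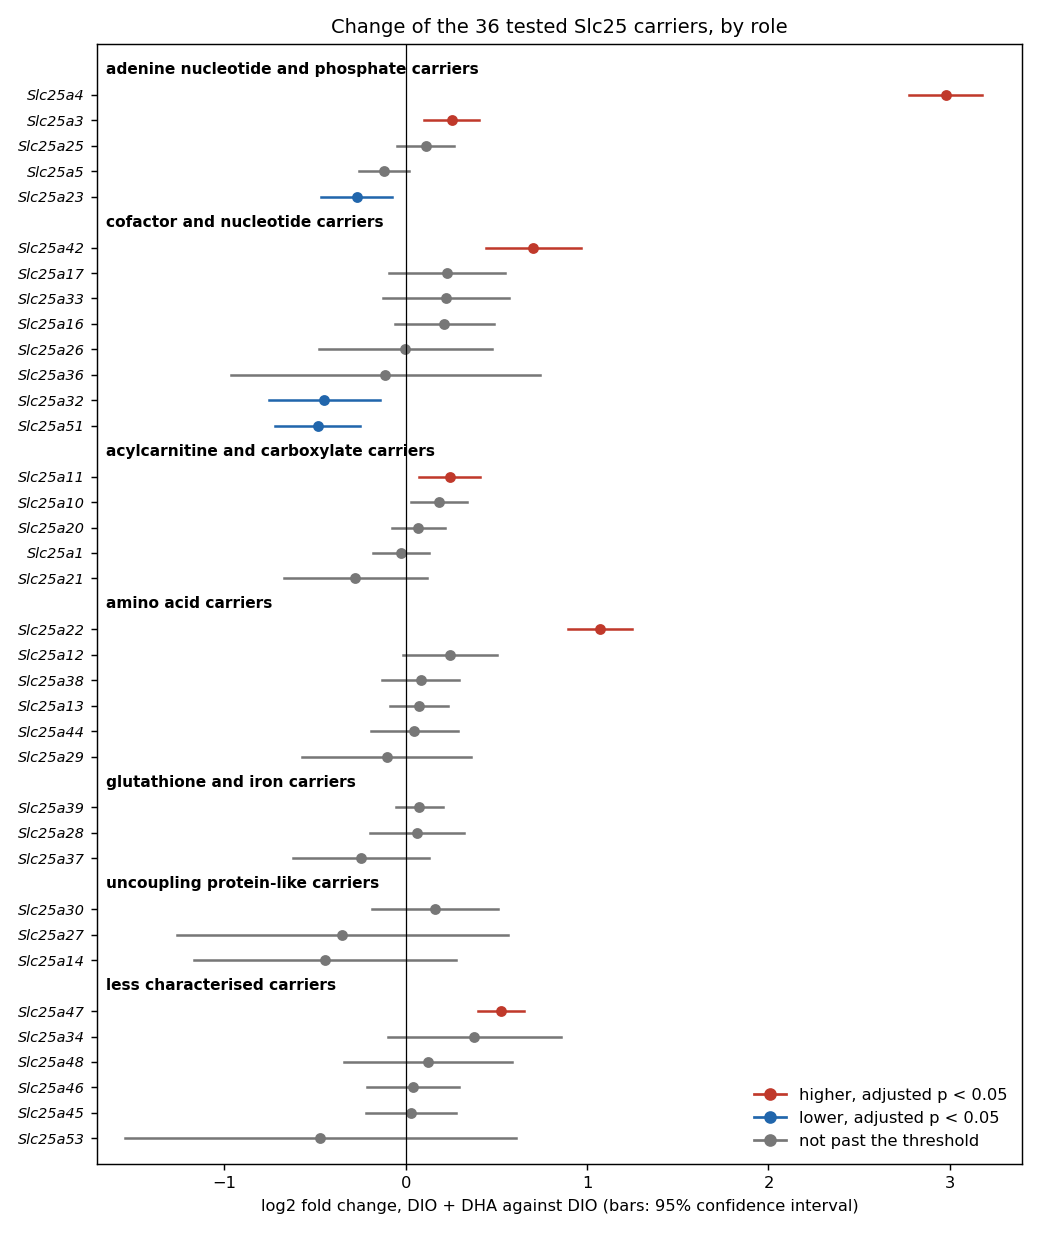
The log2 fold change of the DIO + DHA against the DIO group (x axis) is plotted for each of the 36 tested carriers (y axis, grouped by role), with bars for the 95% confidence interval of the edgeR fit. Slc25a4 stands alone at 2.98, Slc25a22 follows at 1.07, and the other points lie between -0.49 and 0.70.

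Slc25a4 and Slc25a5 encode the exchangers of ADP and ATP, and 1 coding stretch of them is shown because it carries the signature of nucleotide exchangers and because the pair has to be told apart by its reads. The stretches are 30 bases, 5′ to 3′ on the coding strand, from GRCm39, and capitals mark the bases that differ among the genes. They lie at chr8:46661451-46661480 (minus strand) for Slc25a4, chrX:36061484-36061513 (plus strand) for Slc25a5 and chr3:40677152-40677181 (plus strand) for Slc25a31.
Slc25a4: gacacTgttCgTCgTAgGatgatgatgcag
Slc25a5: gacacGgttCgCCgTCgTatgatgatgcag
Slc25a31: gacacAgttAgAAgACgTatgatgatgcag
Slc25a5 differed from Slc25a4 at 4 of these bases and Slc25a31 at 7. Over the whole coding sequence, Slc25a4 and Slc25a5 shared 77.5% of their bases, and after the stop codon, at the 3′ end, 27.5%. None of the 80-base stretches in the last 500 bases of the Slc25a4 transcript had an exact copy elsewhere in the genome, whereas 34.7% of those of Slc25a5 did. The authors counted unique alignments, so reads from those parts of Slc25a5 would be left out in every library alike. Of all 45 members, 40 had no such copy, and Slc25a51 (17.3%), Slc25a40 (10.9%), Slc25a25 (10.5%) and Slc25a3 (0.475%) were the others that did.

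Slc25a4 (ENSMUSG00000031633.5, chromosome 8, 46659834 to 46664321, minus strand) was at 20.8, 22.2 and 26.3 CPM in DIO replicates 1, 4 and 5. In DIO + DHA replicates 1, 2, 4, 5 and 6 it was at 177, 202, 189, 183 and 182 CPM. Every DIO + DHA library lay far above every DIO library, and neither group held a library apart from the rest. The mean was 23.1 ± 2.83 CPM in DIO livers (SD, n = 3) and 187 ± 9.65 CPM in DIO + DHA livers (SD, n = 5). The log2 fold change was 2.98, with a standard error of 0.10 and an adjusted p of 5.2e-32 by the edgeR test.

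Slc25a5 (ENSMUSG00000016319.4, chromosome X, 36059304 to 36062460, plus strand), the second ADP/ATP translocase, was at 331, 327 and 338 CPM in DIO livers and at 288, 300.0, 326, 306 and 307 CPM in DIO + DHA livers. The DIO + DHA values lay just below the DIO values without overlapping them, but the log2 fold change of -0.12 (95% confidence interval -0.26 to 0.02, adjusted p = 0.278) did not pass the edgeR test. Slc25a4 thus held 5.92% to 7.21% of the counts of the pair in the DIO libraries and 36.7% to 40.2% in the DIO + DHA libraries. The 95% Wilson intervals of these shares reached no higher than 8.41% in the first group and no lower than 34.3% in the second. They cover counting error only and not the spread between mice. It is not stated whether reads of the same molecule were collapsed, and if they were not, the intervals are too narrow. The summed CPM of the pair was 355 ± 8.18 (SD, n = 3) and 492 ± 18.6 (SD, n = 5).

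Skeletal muscle markers moved with Slc25a4. The summed CPM of the 30 markers, given above, did not overlap between the groups. Acta1, the actin of skeletal muscle, had a mean of 11.8 CPM in the first group and 545 CPM in the second, and Mb, Casq1, Cacna1s and Ampd1 had 0 counts in every DIO library. Slc25a4 stood at 33.9 to 51.0 CPM per 100 CPM of muscle markers in DIO livers and at 9.72 to 11.4 in DIO + DHA livers, so the ratio of the carrier to the markers was lower where both were high. The summed CPM of 7 heart markers was 1.62 to 2.31 in the DIO group and 4.56 to 5.86 in the DIO + DHA group. Actc1, which had 3 counts in the first group and 74 in the second, carried most of that difference. Myl4 went the other way, with 17 and 12 counts, and was not called (log2 fold change -1.07). Tnni3 had 5 and 8 counts, Myl7 had 0 and 4, and Myh6, Nppa and Nppb had 0 in all 8 libraries. The part of muscle or heart RNA in the change of Slc25a4 was not tested.

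**Figure D2:**
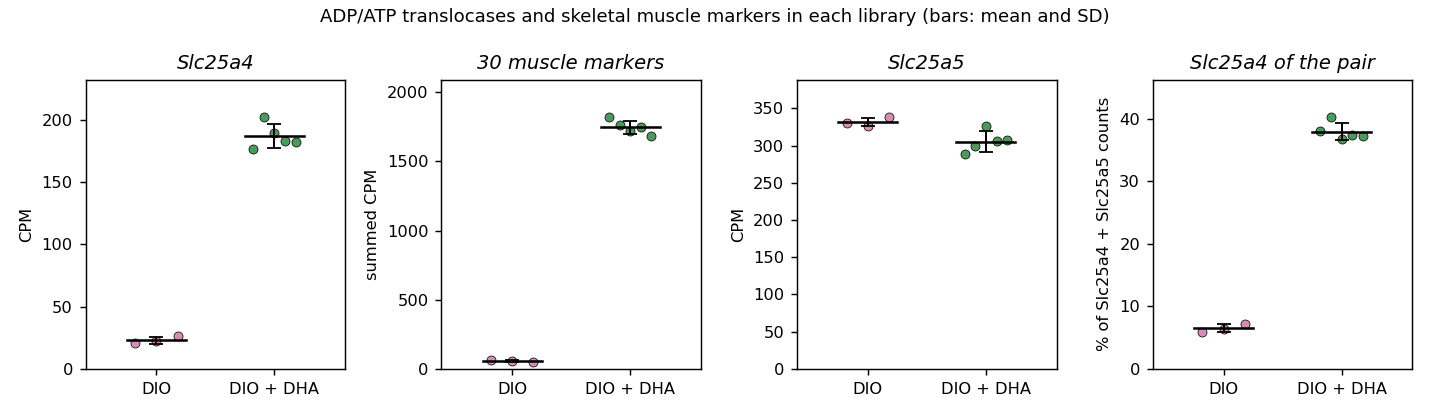
Levels in each library are plotted for Slc25a4 (CPM), the 30 skeletal muscle markers (summed CPM), Slc25a5 (CPM) and the share of Slc25a4 in the counts of Slc25a4 and Slc25a5 (percent), with a point per library and bars for the mean and SD of 3 DIO and 5 DIO + DHA libraries. Slc25a4, the markers and the share are high in all 5 DIO + DHA libraries, and Slc25a5 lies between 288 and 338 CPM in all 8.

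The other carriers of adenine nucleotides and phosphate changed little. Slc25a3 (ENSMUSG00000061904.13, chromosome 10, 90952436 to 90959921, minus strand) brings in the phosphate that ATP synthase joins to ADP. It was at 224, 240.4 and 244 CPM in DIO livers and at 263, 286, 275, 260.4 and 329 CPM in DIO + DHA livers, all above the DIO libraries. The log2 fold change was 0.25 (standard error 0.075, adjusted p = 0.0128 by the edgeR test), or 1.19-fold. The call was lost without DIO replicate 1 (adjusted p = 0.054) and without DIO + DHA replicate 6, its highest library (adjusted p = 0.069), with adjusted p from 0.0078 to 0.19 over all alternatives. An antisense gene, Gm56945, covered 11.8% of its exon bases. Counting ignored strand and did not let a read count for several genes, so reads that overlapped both were counted for neither. Slc25a23, a calcium-activated ATP-Mg/phosphate carrier, was called lower at a log2 fold change of -0.27 (adjusted p = 0.0489), and its libraries overlapped, from 71.9 to 91.1 CPM in the DIO group and 58.5 to 80.1 CPM in the DIO + DHA group. Its relative Slc25a25 was at 143 ± 4.38 and 155 ± 12.7 CPM (SD, n = 3 and 5) and was not called.

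The glutamate carrier Slc25a22 showed the largest change of any liver carrier. It lets glutamate into the matrix together with a proton, where the amino group can be released as ammonia or passed on. Slc25a22 (ENSMUSG00000019082.19, chromosome 7, 141009657 to 141017805, minus strand) was at 57.4, 65.1 and 58.4 CPM in DIO livers and at 122, 134, 125, 139 and 120.3 CPM in DIO + DHA livers. The lowest DIO + DHA library was well above the highest DIO library. The mean was 60.3 ± 4.19 CPM in DIO livers (SD, n = 3) and 128 ± 8.10 CPM in DIO + DHA livers (SD, n = 5). This was a 2.10-fold difference, or 1.07 on the log2 scale (standard error 0.09, adjusted p = 6.3e-15 by the edgeR test). Of the 12412 genes tested, 425 had a log2 fold change of at least this size in the same direction, Slc25a22 included.

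The remaining amino acid carriers gave no call. Slc25a13, or citrin, is the aspartate/glutamate carrier of liver and feeds both the urea cycle and the malate-aspartate shuttle, which moves the electrons of cytosolic NADH into mitochondria. It was at 127, 124 and 121 CPM in DIO livers and at 126, 124, 132, 122 and 143 CPM in DIO + DHA livers, which overlapped. Its log2 fold change of 0.07 had a 95% confidence interval of -0.09 to 0.23. Slc25a12, or aralar, the form that muscle and brain prefer, was at 23.7 ± 0.974 CPM in DIO livers (SD, n = 3) and 28.4 ± 3.53 CPM in DIO + DHA livers (SD, n = 5). Its libraries did not overlap, but the adjusted p was 0.233. The glycine carrier Slc25a38, the branched-chain amino acid carrier Slc25a44 and the basic amino acid carrier Slc25a29 had log2 fold changes from -0.10 to 0.08 and were not called.

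Carriers and enzymes of the malate-aspartate exchange are given side by side. Slc25a11, which trades malate for oxoglutarate, was called higher at a log2 fold change of 0.24 (adjusted p = 0.0362 by edgeR's quasi-likelihood test), but its libraries overlapped, at 108 to 119 CPM in the DIO group and 116 to 144 CPM in the DIO + DHA group. Rnf167, an antisense gene, covered 8.92% of its exon bases. The cytosolic aspartate aminotransferase Got1 was at 127, 138 and 139 CPM in DIO livers and at 259.9, 246, 273, 245 and 277 CPM in DIO + DHA livers. Every DIO + DHA library was higher, with a change of 0.94 on the log2 scale (adjusted p = 3.6e-15). The malate dehydrogenases Mdh1 of the cytosol (0.24) and Mdh2 of mitochondria (0.29) and the mitochondrial glycerol-3-phosphate dehydrogenase Gpd2 (0.39) were also called higher. The mitochondrial aminotransferase Got2 had a log2 fold change of 0.04 (adjusted p = 0.833) and the cytosolic Gpd1 one of 0.17 (adjusted p = 0.0994). Of the 6 shuttle enzymes listed, 4 were called, all higher, beside the 15.2% of all genes called and the 7.89% called higher. These 4 did not overlap between the groups, as was so for 18.4% of all tested genes. Muscle and epithelial markers differed between the same libraries. The part of muscle or epithelial RNA in these changes, or in those of Slc25a3 and Slc25a22, was not tested.

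**Figure D3:**
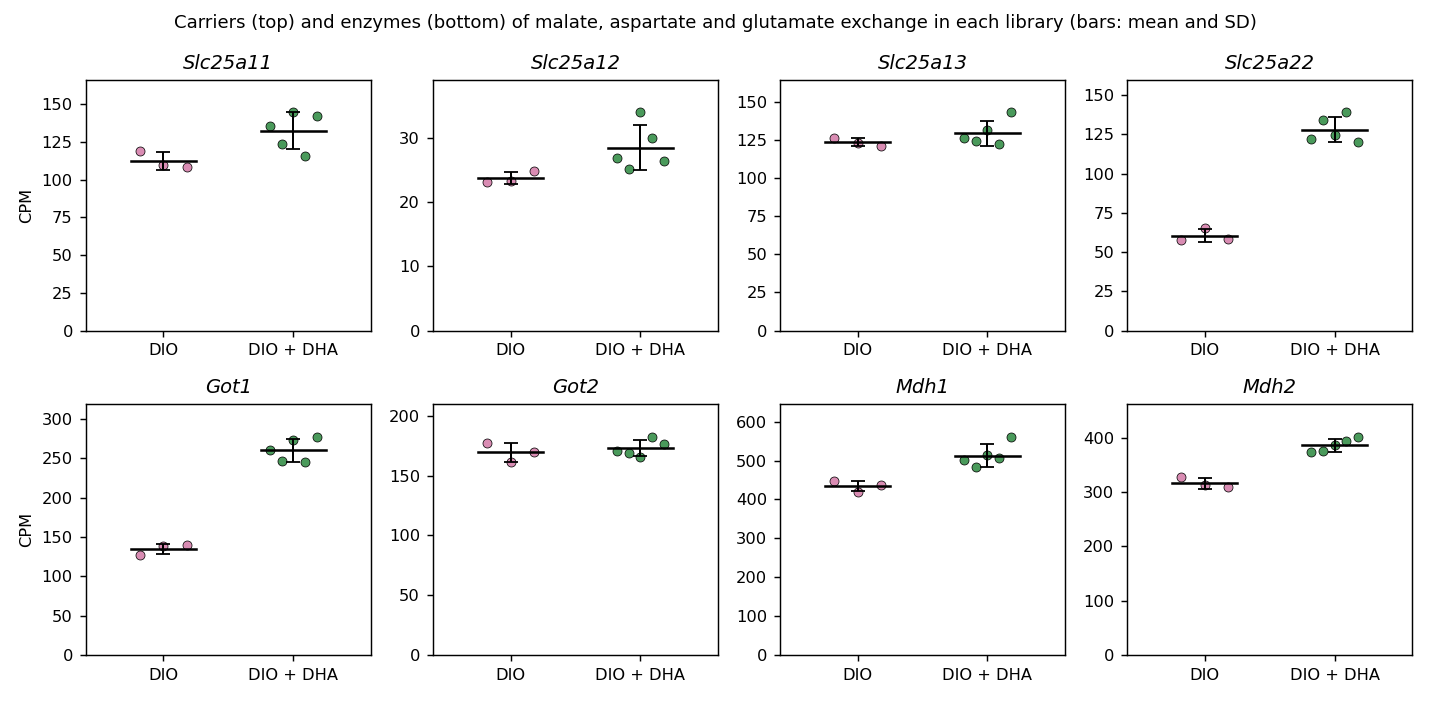
CPM in each library is plotted for the carriers Slc25a11, Slc25a12, Slc25a13 and Slc25a22 (top) and the enzymes Got1, Got2, Mdh1 and Mdh2 (bottom), with a point per library and bars for the mean and SD of 3 DIO and 5 DIO + DHA libraries. Slc25a22 and Got1 are separated by the widest gaps, while the libraries of Slc25a13 and Got2 overlap.

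Of the 5 acylcarnitine and carboxylate carriers, Slc25a11 was called, as given above, and the other members were not. Slc25a20, the carnitine/acylcarnitine translocase, brings acylcarnitines in for β-oxidation. It was at 230.1, 250.5 and 254 CPM in DIO livers and at 278, 236, 260.1, 266 and 249 CPM in DIO + DHA livers. The groups overlapped, and the log2 fold change of 0.07 had a 95% confidence interval of -0.07 to 0.22. Slc25a1, which exports citrate for the making of fatty acids, was at 145, 139 and 140.4 CPM in DIO livers and at 146, 136, 141, 142 and 129 CPM in DIO + DHA livers. Its log2 fold change was -0.02, with an interval of -0.18 to 0.13. The dicarboxylate carrier Slc25a10 had 184 ± 19.1 CPM in DIO livers (SD, n = 3), 209 ± 12.5 CPM in DIO + DHA livers (SD, n = 5) and an adjusted p of 0.102. The oxodicarboxylate carrier Slc25a21, at -0.28 on the log2 scale, was not called (adjusted p = 0.413).

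Enzymes that make or use the substrates of these carriers are given beside the 15.2% of all tested genes that were called. Of the 5 tested genes of the carnitine shuttle, Crat (0.49 on the log2 scale) and Crot (0.37), the carnitine acyltransferases for short and medium chains, were higher (adjusted p = 6.2e-06 and 6.2e-05). Cpt1a, the entry enzyme of the outer membrane, had a log2 fold change of 0.07 (adjusted p = 0.624), and Cpt2, its partner in the inner membrane, had 0.20 (adjusted p = 0.0516) with no overlap between the groups. Of the 5 citrate export enzymes, 1 was called, a share near that of all genes, the fatty acid synthase Fasn (0.34, adjusted p = 0.027). The citrate-cleaving enzyme Acly had a log2 fold change of -0.07 and was not called.

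Of the 8 cofactor and nucleotide carriers, all tested, 3 were called, 1 higher and 2 lower, beside 15.2% of all tested genes. Of the 5 tested carriers of adenine nucleotides and phosphate, 3 were called as well, 2 higher and 1 lower. Slc25a42 (ENSMUSG00000002346.17, chromosome 8, 70636990 to 70664955, minus strand) brings coenzyme A into the matrix. It was at 23.1, 20.9 and 20.4 CPM in DIO livers and at 36.3, 38.2, 31.0, 38.4 and 28.2 CPM in DIO + DHA livers. All DIO + DHA libraries were higher, by 1.63-fold on the fitted scale, with a change of 0.70 on the log2 scale (standard error 0.13, adjusted p = 3.6e-05 by the edgeR test). Slc25a16, a putative CoA carrier, and Slc25a17, the peroxisomal carrier of CoA and related cofactors, were not called, at 0.21 and 0.23 on the log2 scale.

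Slc25a51 (ENSMUSG00000045973.19, chromosome 4, 45395923 to 45408766, minus strand) is the carrier through which NAD enters mitochondria. It was at 36.6, 35.5 and 41.5 CPM in DIO livers and at 24.99, 30.8, 23.9, 28.1 and 28.4 CPM in DIO + DHA livers. All of the second group were lower, with a change of -0.49 on the log2 scale (standard error 0.12, adjusted p = 0.00185 by the edgeR test). Without DIO replicate 5, its highest DIO library, the adjusted p was 0.064, and over all alternatives it ran from 0.0013 to 0.064.

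Slc25a32, the folate and FAD carrier, was called lower at a log2 fold change of -0.45 (adjusted p = 0.0368), and its libraries overlapped, at 17.5 to 25.3 CPM in the DIO group and 12.7 to 19.3 CPM in the DIO + DHA group. The S-adenosylmethionine carrier Slc25a26 and the pyrimidine nucleotide carriers Slc25a33 and Slc25a36 were not called and had log2 fold changes from -0.11 to 0.22. The calls of the carriers whose libraries overlapped depended on which libraries were included. Slc25a32 lost its call without any of DIO replicates 1 and 5 and DIO + DHA replicates 1, 2 and 5 (adjusted p = 0.059 to 0.32, and 0.011 to 0.32 over all alternatives). Slc25a11 lost it without any of DIO replicates 4 and 5 and DIO + DHA replicates 1, 4 and 6 (0.082 to 0.13, and 0.012 to 0.13). Slc25a23 lost it without any of DIO replicates 1 and 4 and DIO + DHA replicates 1, 4, 5 and 6 (0.055 to 0.23, and 0.011 to 0.23).

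Slc25a47 (ENSMUSG00000048856.10, chromosome 12, 108801972 to 108822741, plus strand) is a carrier expressed mainly in liver, and it took the largest share of the family's counts. It was at 1471, 1414 and 1600.0 CPM in DIO livers and at 2188, 2105, 2292, 2224 and 1969.6 CPM in DIO + DHA livers. The groups did not overlap, and the log2 fold change was 0.53 (standard error 0.06, adjusted p = 1.7e-09 by the edgeR test), or 1.44-fold. Its neighbour Slc25a29, which lies next to it on the minus strand (108791799 to 108801809), was at 6.99 ± 2.33 CPM in DIO livers (SD, n = 3) and 7.14 ± 1.67 CPM in DIO + DHA livers (SD, n = 5) and was not called.

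The summed CPM of the 45 carriers was 4264 ± 112 (SD, n = 3) in the DIO libraries and 5279.8 ± 125 (SD, n = 5) in the DIO + DHA libraries. Slc25a47 made up 35.04% ± 1.31 (SD, n = 3) of that sum in the first group and 40.8% ± 1.48 (SD, n = 5) in the second. Without Slc25a47 and Slc25a4 the sum was 2746 ± 19.1 (SD, n = 3) and 2938 ± 47.6 (SD, n = 5), a ratio of 1.07. Of the difference of 1016 CPM between the group means, 192 CPM lay outside this pair.

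**Figure D4:**
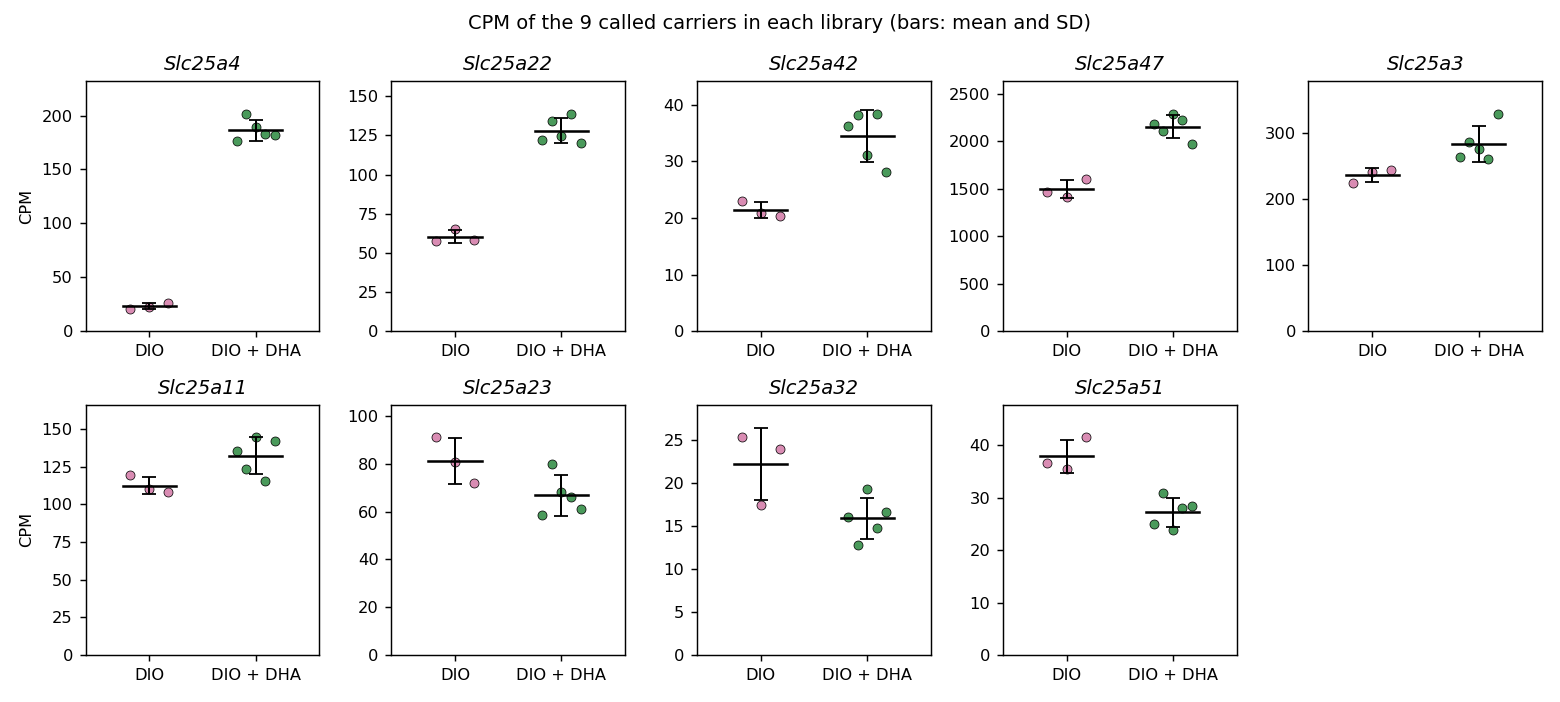
CPM in each library is plotted for the 9 carriers with an adjusted p under 0.05, with a point per library and bars for the mean and SD of 3 DIO and 5 DIO + DHA libraries, on an axis that starts at 0 for each gene. The libraries of 6 carriers do not overlap between the groups, and those of Slc25a11, Slc25a23 and Slc25a32 do.

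Of the 36 tested members, 8 showed groups that did not overlap (Slc25a5 and Slc25a12 beside 6 called ones), as did 18.4% of all tested genes. The glutathione carrier Slc25a39 was at 684 ± 2.09 CPM in DIO livers (SD, n = 3) and 721 ± 35.9 CPM in DIO + DHA livers (SD, n = 5), and neither it nor the mitoferrins Slc25a28 and Slc25a37, which carry iron, were called. The uncoupling protein-like carriers Slc25a14, Slc25a27 and Slc25a30 were not called either, with log2 fold changes from -0.45 to 0.16. Of the less characterised carriers, Slc25a34, Slc25a45, Slc25a46, Slc25a48 and Slc25a53 were between -0.47 and 0.38 and were not called. Over all 27 members that were tested and not called, adjusted p-values ran from 0.102 to 0.999. For the 19 of them with at least 10 CPM in the DIO group, the 95% confidence intervals stayed within -0.67 and 0.57 on the log2 scale.

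The uncoupling proteins belong to the same superfamily under other names. Ucp1, which lets protons back into the matrix of brown fat mitochondria, had 0 counts in DIO livers and 89 in DIO + DHA livers, at least 19.3-fold higher against a floor of 3 counts over the group. Brown fat markers moved with it, at a summed 28.2 to 32.6 CPM in DIO livers and 128 to 155 CPM in DIO + DHA livers, and the list includes Ucp1 itself. Most of that difference came from Cox7a1 (21.03 and 58.7 CPM on average) and Cox8b (2.75 and 61.6 CPM), subunits that muscle also expresses. Cidea had means of 0.118 and 2.61 CPM, Elovl3 was called higher at 0.98 on the log2 scale, and Ppargc1b was not called at 0.04. Dio2 had 0 and 10 counts, too few for the test, and Otop1 was at 0 in all libraries. Ucp2 was at 3.59 ± 1.37 CPM in DIO livers (SD, n = 3) and 2.32 ± 0.526 CPM in DIO + DHA livers (SD, n = 5) and was not called. Ucp3 had 0 counts in DIO livers and 16 in DIO + DHA livers, too few for the test. The part of brown fat or muscle RNA in the counts of Ucp1 and Ucp3 was not tested.

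Other transport and import genes of mitochondria are given beside the 15.2% of all tested genes that were called. The pyruvate carrier is made of Mpc1 and Mpc2, and Mpc2 was higher (785 ± 18.5 CPM, n = 3, and 1007 ± 65.3 CPM, n = 5, SD; log2 fold change 0.36, adjusted p = 2.4e-05 by edgeR's quasi-likelihood test), while Mpc1 was at 5.22 ± 0.933 and 4.64 ± 1.70 CPM (SD, n = 3 and 5) and was not called. In the list of the pyruvate carrier and the sideroflexins, 1 of 6 tested genes was called, a share near that of all genes. Of 13 genes that import and insert carrier proteins, 2 were called, the receptor Tomm20 (0.69, adjusted p = 0.00294) and the small chaperone Timm8b (0.28, adjusted p = 0.0377), both higher, which is again near that share. The calcium uniporter and its regulators gave 0 calls of 8 tested by edgeR, DESeq2 and limma-voom alike, and 0 had an unadjusted p under 0.05. Metabolites cross the outer membrane through the voltage-dependent anion channels Vdac1, Vdac2 and Vdac3. These had log2 fold changes of 0.15 to 0.16 and adjusted p-values of 0.211 to 0.306 by the edgeR test, and none was called. In all 3 the DIO + DHA libraries lay above the DIO libraries, beside 18.4% of all tested genes whose groups did not overlap.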

How the data were processed

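Liver poly(A) RNA of 3 DIO and 5 DIO + DHA mice was measured by 3′-enriched RNA-seq. The authors aligned the reads to GRCm39 with STAR 2.7.9a and used featureCounts 1.6.0 with exons of GENCODE mouse release 33, and the deposited values are raw counts per gene. The counting commands set no strand and kept unique alignments. The sources do not say whether unique molecular identifiers were collapsed. Symbols came from GENCODE release 39, which held 56323 of the identifiers (561 were unmatched). Of 47 symbols of the pattern, 2 are not reported here.

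Genes were left out where, in both groups, over 50% of libraries had fewer than 5 counts, a filter stated in the study's methods. Counts were scaled by TMM and tested over 12412 genes with edgeR 4.0.16 (R 4.3.3), by its robust quasi-likelihood test and Benjamini-Hochberg adjustment, and a gene was called at an adjusted p under 0.05. DESeq2 1.42.0 and limma 3.58.1 gave alternatives. On simulated counts of this design, 100% of 2-fold and 57.4% of 0.5 log2 changes were called among genes of at least 10 CPM. The simulation left 11844 of its 12040 genes unchanged and gave all genes the same spread between libraries (biological coefficient of variation 0.08). In the data, 15.2% of genes were called and the spread can differ by gene, so these shares are not its detection rates. P-values measure the spread between mice of 1 experiment.

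Members and lists were chosen with earlier results of these data known. Every member was placed in a role group and each called one named with its change. Values in every library are given for Slc25a1, Slc25a3, Slc25a4, Slc25a5, Slc25a13, Slc25a20 and Slc25a47 and for called liver carriers, within the 12 smallest p, whose groups did not overlap. Of the 8 related lists, called genes are named. Other genes named beside them, such as Cpt1a, Got2 and Vdac1, were chosen after their values were seen. Library shares carry 95% Wilson intervals.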

Additional observations from a re-analysis of the deposited data

Results flagged for a closer look

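In a test of the highest and lowest of the 5 DIO + DHA libraries for 51 carriers, lists and sums, 2 values stood apart from the other libraries by Dixon's criterion, and chance gives about 1 in 20 such groups. Slc25a16, a putative CoA carrier, was at 42.9 CPM in DIO + DHA replicate 5 and at 28.6 to 31.4 CPM in the other 4. Slc25a26, the S-adenosylmethionine carrier, was at 8.04 CPM in DIO + DHA replicate 2 and at 3.71 to 4.92 CPM in the other 4. Neither carrier was called between the groups.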

How the results depend on the processing

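Slc25a4, Slc25a22, Slc25a42 and Slc25a47 were called in the same direction under all 10 alternatives of normalization, test, filter and block and without each of the 8 libraries. The number of called carriers was 9, of which 8 were liver carriers, and it was 6 with the DESeq2 Wald test (1 lower, 5 liver carriers) and 4 at limma-voom's B above 0 (0 lower, 3 liver carriers). limma-voom at an adjusted p under 0.05 called 1 lower carrier. At B above 0, the study's own criterion, the 3 lower calls were thus lost, and the cause was not tested. Over all genes, the main fit called 1883 (904 lower) and B above 0 called 860 (397 lower). The DESeq2 Wald test called 1317 (601 lower) and limma-voom by adjusted p 1862 (908 lower). Leaving out each library in turn gave 6 to 8 called carriers, 5 to 7 of them liver carriers (5 without each of DIO replicate 1 and DIO + DHA replicates 1 and 6), and 1 to 2 lower in place of 3, with 1 without each of DIO replicates 1 and 5 and DIO + DHA replicates 1 and 5. Among these settings, Slc25a10 was called only without DIO replicate 5. The numbers 1, 4 and 5 occur in both groups but did not pair the libraries (deviation correlations -0.0102, -0.013 and -0.0152). With the replicate number as a block, 6 carriers were called, 4 higher and 2 lower (5 liver carriers), of 1538 genes in all, Slc25a3, Slc25a11 and Slc25a32 lost their calls, and Slc25a1, not called in either fit, turned from -0.02 to 0.016 on the log2 scale. Limits of 0.5 or 2 CPM in place of 1 for carriers near 0 left 8 liver carriers called. Another normalization moved the median of all genes by less than 0.1 on the log2 scale. At this depth, differences in carriers under 10 CPM were detectable only where large.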
